A study of Mus musculus with 18 samples.

Results

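The 4 genes of the tissue inhibitors of metalloproteinases (Timp1, Timp2, Timp3 and Timp4) and 5 genes of matrix metalloproteinases (Mmp2, Mmp3, Mmp9, Mmp14 and Mmp15) were followed in 18 muscle libraries. They were taken by name, through their Ensembl identifiers, as 9 of 41388 features in the deposited count tables. All 9 were found, and all 9 passed the low-count filter in every comparison.

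Libraries came from the soleus, a mixed calf muscle rich in slow fibres, and from the gastrocnemius, a mainly fast calf muscle. Knockout mice had floxed Mbtps1, the gene of Site-1 Protease, and HSACre+, in which human skeletal actin sequences drive a Cre recombinase in muscle fibres and not in the connective tissue, vessel or immune cells of the muscle. Control mice had the floxed gene without the Cre label, and all mice were 12 weeks old, ate chow and were fasted for 4 h. By their titles there were 4 knockout and 5 control libraries of the soleus, and 4 knockout and 5 control libraries of the gastrocnemius, although the series text states 4 per group. Libraries are named here by the number in their title. The labels do not say whether each library is a separate mouse; if some are not, the spread behind the p-values is partly technical. Nor do they say whether both muscles came from the same mice. The title numbers run through the genotypes in the same order in both muscles, so that gastrocnemius knockout 7 and soleus knockout 40 hold the same place, but no label ties a number to a mouse and the muscles were compared unpaired.

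Matrix metalloproteinases cut collagens and other proteins of the matrix around cells. Mmp2 and Mmp9 are secreted gelatinases, Mmp3 is secreted stromelysin-1, and Mmp14 and Mmp15 are held in the cell membrane. TIMPs bind the active site of these enzymes and block it. Timp2 has a further role, since together with membrane-bound Mmp14 it brings pro-Mmp2 to the cell surface for activation. Timp3 binds to the matrix and also blocks ADAM and ADAMTS proteases, and Timp1 is the inducible member of the family. In skeletal muscle most of this set is known as products of fibroblasts, vessel cells and immune cells rather than of the fibre itself.

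The promoters of Timp1 and Mmp3 are shown because these genes had the largest fold changes between knockout and control libraries in both muscles. Both are classical genes of the AP-1 and ETS transcription factor families. RefSeq (GRCm38.p6) held a promoter for 7 of the 9 genes, from 250 bases before to 50 bases after the start of the gene, and Mmp2 and Mmp9 were not in that table. Capitals mark the AP-1 motif TGANTCA, its variant TGAGTAA, the ETS motif CAGGAAG and the TATA motif TATAAA, searched on both strands. Given 5′ to 3′ on the plus strand, the 250 bases before the start of Timp1 (chrX:20869916-20870165), a stretch of 28 bases inside its transcribed part (chrX:20870188-20870215) and the 250 bases before the start of Mmp3 (chr9:7445572-7445821) read:
Timp1 before the start: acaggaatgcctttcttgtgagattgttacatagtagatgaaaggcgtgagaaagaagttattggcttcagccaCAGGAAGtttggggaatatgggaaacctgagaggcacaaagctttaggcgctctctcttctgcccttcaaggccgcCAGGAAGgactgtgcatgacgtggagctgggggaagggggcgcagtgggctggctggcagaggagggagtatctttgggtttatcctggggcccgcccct
Timp1 after the start: tggaTGAGTAAtgcgtcCAGGAAGcctg
Mmp3 before the start: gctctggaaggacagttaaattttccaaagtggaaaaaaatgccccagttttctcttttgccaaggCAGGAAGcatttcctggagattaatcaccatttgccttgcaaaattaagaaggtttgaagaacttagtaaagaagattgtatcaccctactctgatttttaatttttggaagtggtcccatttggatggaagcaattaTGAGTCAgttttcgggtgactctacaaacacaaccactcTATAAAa
Timp1 held the ETS motif 3 times and the AP-1 variant 1 time. Mmp3 held TGAGTCA, an ETS motif and a TATA motif 1 time each. Timp3 and Timp4 held 1 ETS motif each, and the windows of Timp2, Mmp14 and Mmp15 held no match. Among 32851 promoters of this length, TGANTCA was present in 7.81%, TGAGTAA in 2.68%, CAGGAAG in 13.3% and TATAAA in 13.6%. A match is a description of the sequence and says nothing of binding.

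Each library held 39.0 to 78.2 M counts. Mbtps1 itself was not lower in knockout libraries. It had 31.0 to 36.3 CPM in soleus knockouts and 30.5 to 34.4 CPM in soleus controls, and 34.7 to 42.8 CPM in gastrocnemius knockouts and 29.6 to 34.9 CPM in gastrocnemius controls. No source used here gives the deleted exon, so the count of the whole gene does not check the genotype labels. Slow-fibre markers separated the muscles: the sum of 6 was 9927 to 14466 CPM in soleus knockouts and 14741 to 18671 CPM in soleus controls, against 247 to 657 CPM in gastrocnemius knockouts and 642 to 1014 CPM in gastrocnemius controls. 1 knockout library of each muscle had the highest fibroblast and macrophage marker sums of its group. Gastrocnemius knockout 7 had a fibroblast marker sum of 4191 CPM and a macrophage marker sum of 260.7 CPM. The group medians were 2762 and 140.8 CPM in gastrocnemius knockouts, and 2091 and 113.4 CPM in gastrocnemius controls. Soleus knockout 40 had 2402 CPM for fibroblasts and 143.2 CPM for macrophages, with medians of 1621 and 96.8 CPM in soleus knockouts and 1139 and 75.7 CPM in soleus controls. The fold changes of the 9 genes that rest on knockouts are therefore given with and without these libraries.

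Per kilobase of gene length, Timp2, Timp3, Timp4 and Mmp2 were the most abundant 4 of the set in controls of both muscles. In soleus controls the order was Timp4 with 24.2 ± 4.72 CPM per kilobase, Timp3 with 16.4 ± 2.60, Mmp2 with 14.9 ± 2.07, Timp2 with 13.5 ± 2.09, Mmp15 with 5.97 ± 0.537 and Mmp14 with 3.89 ± 0.286 (SD, n = 5). Timp1 followed with 1.30 ± 0.350 CPM per kilobase, then Mmp9 with 0.166 ± 0.0248 and Mmp3 with 0.0558 ± 0.0475. In this order the steps from Timp3 to Mmp2 and from Mmp2 to Timp2 were within 1 SD, whereas each of the other steps exceeded the SDs. In gastrocnemius controls Timp2 led with 31.7 ± 3.23 CPM per kilobase, ahead of Mmp2 with 19.3 ± 3.05, Timp4 with 18.5 ± 3.23 and Timp3 with 16.9 ± 1.63, and the last 3 lay within their spread of one another (SD, n = 5). Mmp15 had 11.5 ± 1.09 CPM per kilobase there, Mmp14 had 4.55 ± 0.492, Mmp9 had 0.638 ± 0.235, Timp1 had 0.429 ± 0.268 and Mmp3 had 0.0710 ± 0.0627. Mmp9 and Timp1 lay within their spread of each other.

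**Figure D1:**
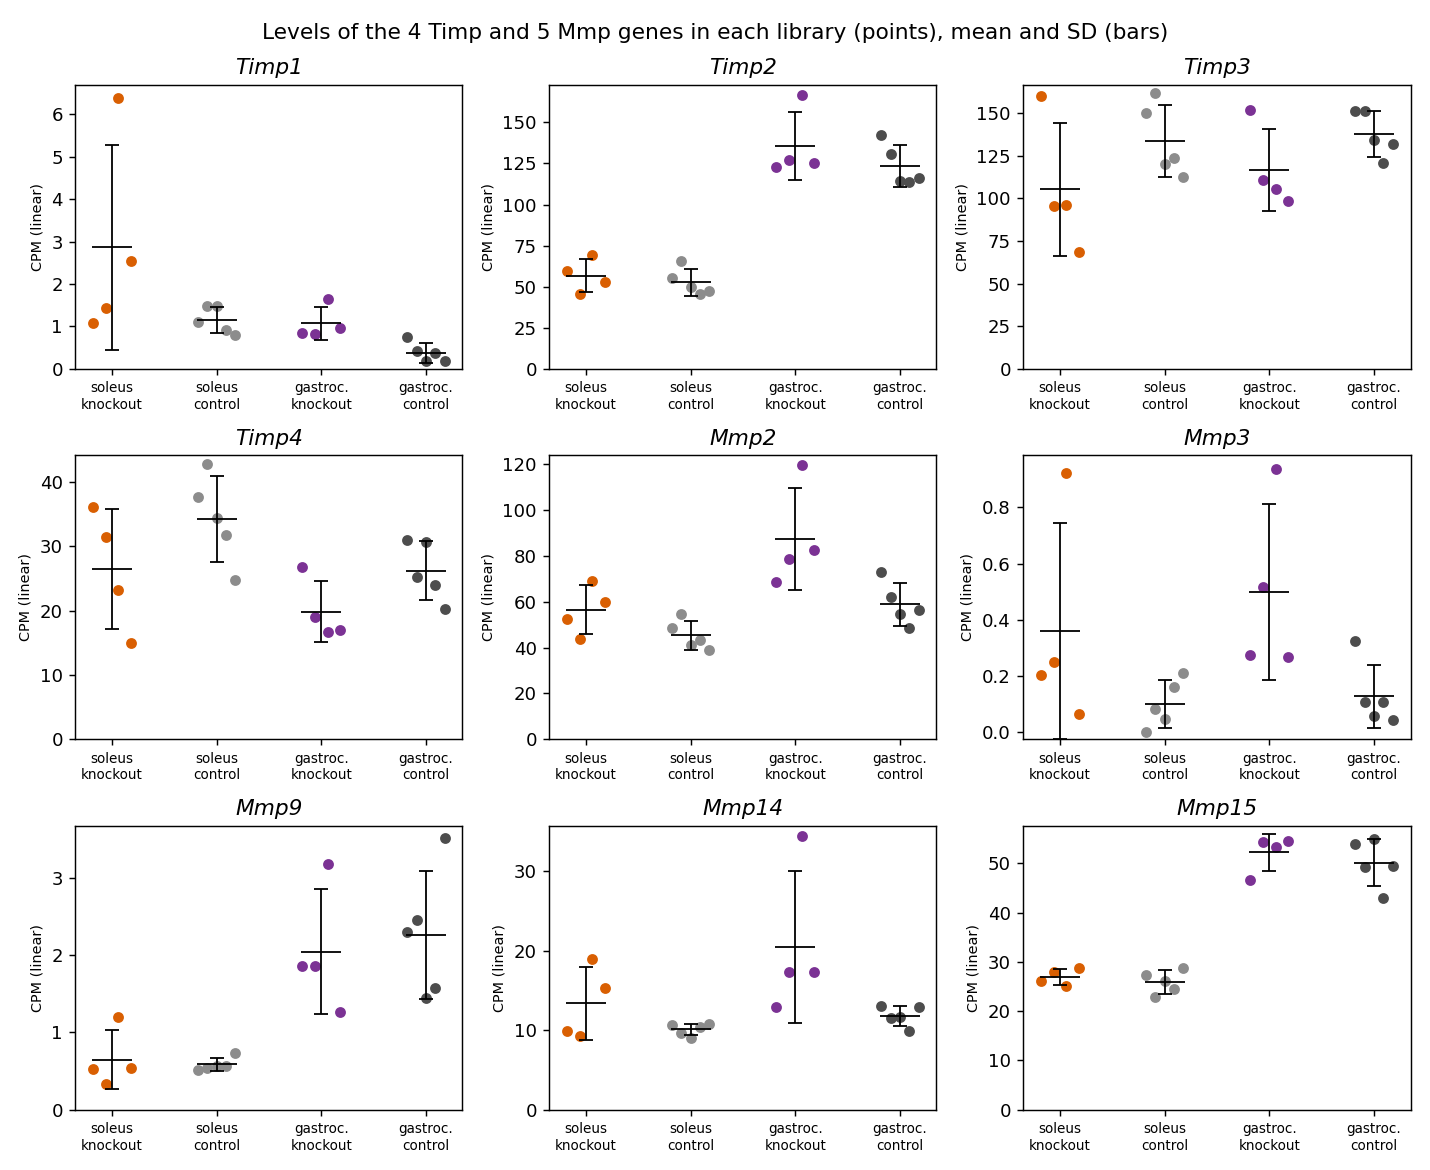
Level of each of the 9 genes (y axis, CPM on a linear scale) in every library (points) of soleus knockouts, soleus controls, gastrocnemius knockouts and gastrocnemius controls (x axis), with the group mean and SD as bars. Timp2, Mmp9 and Mmp15 lie lower in soleus than in gastrocnemius in both genotypes, and single knockout libraries lie far above the rest for Timp1, Mmp3 and Mmp14.

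In gastrocnemius, knockout and control libraries were compared to see what loss of Site-1 Protease in the fibres goes with in this set. None of the 9 genes passed the test, edgeR's quasi-likelihood test with an adjusted p under 0.05 over all 16393 genes tested, which 3.78% of those genes passed. Timp1 and Mmp3 had the largest fold changes, followed by Mmp14 and Mmp2, all with higher means in knockouts, whereas Timp3 and Timp4 had lower means. At an unadjusted p under 0.05 were 5 of 9, namely Timp1, Timp4, Mmp2, Mmp3 and Mmp14, against 18.6% of all genes tested. Every knockout held at least 10 reads of Mmp3 but of the controls only control 1 did, so the low-count filter favoured a difference. Without Mmp3 the count is 4 of 8. DESeq2, which called 1235 of the 16393 genes against 619 by edgeR, called Timp1, Mmp2 and Mmp14 besides Mmp3. Limma voom, which called 575 of them, called Timp1 alone. Without knockout 7, edgeR again called 0 of 9. The groups did not overlap for 1 of 9, Timp1, against 8.41% of all genes.

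Among the inhibitors, Timp1 had 0.852, 0.824, 1.65 and 0.950 CPM in gastrocnemius knockouts 2, 6, 7 and 9, and 0.753, 0.428, 0.177, 0.372 and 0.172 CPM in controls 1, 3, 4, 5 and 8. Every knockout lay above every control, with knockout 7 highest and control 1 close below the knockouts. On the log2 scale knockouts were higher by 1.46 (SE 0.41, adjusted p = 0.0642, edgeR). Without knockout 7 it was 1.18 (adjusted p = 0.188). Timp1 lies within Syn1, which runs on the other strand and shares no exonic base with it. Syn1, a synaptic vesicle protein gene, averaged 0.943 ± 0.182 CPM in knockouts and 0.460 ± 0.129 CPM in controls (SD, n = 4 and 5), with a log2 fold change of 1.03 and an adjusted p of 0.0707 by edgeR. The strand setting of the counting is not given, and the part of reads from one gene in the other was not tested.

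Timp4, an inhibitor known mainly from heart, muscle and fat, had 26.7, 19.0, 16.6 and 17.0 CPM in knockouts 2, 6, 7 and 9, and 30.9, 25.2, 30.6, 24.0 and 20.2 CPM in controls 1, 3, 4, 5 and 8. 3 of 4 knockouts lay below every control, and knockout 2 lay among the controls. Its log2 fold change was −0.40 (SE 0.17, adjusted p = 0.223, edgeR). Timp3, the matrix-bound inhibitor, had 152.0, 110.5, 105.6 and 98.2 CPM in the same knockouts, and 151.3, 151.0, 134.0, 120.6 and 131.8 CPM in the same controls. Again 3 of 4 knockouts were below every control and knockout 2 was not, and the log2 fold change was −0.24 (SE 0.12, adjusted p = 0.319, edgeR). Without knockout 2 both genes passed edgeR's test, with log2 fold changes of −0.58 for Timp4 (adjusted p = 0.0187) and −0.40 for Timp3 (adjusted p = 0.0140). Without knockout 7 these were −0.32 for Timp4 (adjusted p = 0.413) and −0.19 for Timp3 (adjusted p = 0.519). Timp2 averaged 135.5 ± 20.8 CPM in knockouts and 123.5 ± 12.6 CPM in controls (SD, n = 4 and 5). Its log2 fold change was 0.13, with a 95% interval of −0.06 to 0.33, and was 0.02 without knockout 7.

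Among the proteases, Mmp3 had 0.276, 0.518, 0.937 and 0.266 CPM in gastrocnemius knockouts 2, 6, 7 and 9, and 0.323, 0.107, 0.0590, 0.106 and 0.0431 CPM in controls 1, 3, 4, 5 and 8. These are 12 to 38 reads in knockouts and 2 to 15 in controls. Knockouts 2 and 9 lay below control 1. Over the group the log2 fold change came to 1.89 (SE 0.58, adjusted p = 0.0874, edgeR), and 1.41 without knockout 7 (adjusted p = 0.269).

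Mmp2, the gelatinase that makes up most of the protease level here, had 68.7, 78.4, 119.7 and 82.6 CPM in knockouts 2, 6, 7 and 9, and 72.9, 62.0, 54.4, 48.4 and 56.2 CPM in controls 1, 3, 4, 5 and 8. 3 of 4 knockouts exceeded every control. For Mmp2 the log2 fold change was 0.57 (SE 0.16, adjusted p = 0.0892, edgeR), and 0.38 without knockout 7 (adjusted p = 0.0994). Mmp14, the membrane protease that activates pro-Mmp2, had 12.9, 17.3, 34.4 and 17.3 CPM in the same knockouts, and 13.1, 11.5, 11.6, 9.96 and 12.9 CPM in the same controls. Knockouts 6, 7 and 9 exceeded every control, with knockout 7 highest. The fitted log2 fold change of Mmp14, 0.79 (SE 0.26, adjusted p = 0.139, edgeR), was 0.43 without knockout 7 (adjusted p = 0.0785).

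Mmp9 and Mmp15 differed by less than the spread between replicates. Mmp9 averaged 2.04 ± 0.807 CPM in gastrocnemius knockouts and 2.26 ± 0.830 CPM in controls, and Mmp15 averaged 52.2 ± 3.70 CPM in knockouts and 50.1 ± 4.73 CPM in controls (SD, n = 4 and 5). For Mmp15 the log2 fold change was 0.06, and its 95% interval, −0.10 to 0.22, was narrow. For Mmp9 the log2 fold change was −0.16, with an interval of −0.74 to 0.42. Without knockout 7 the log2 fold changes were 0.05 for Mmp15 and −0.45 for Mmp9.

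In soleus, 0 of 9 genes passed the same test, which 0.0553% of 18087 genes passed, and DESeq2 and limma voom also called 0. At an unadjusted p under 0.05 were 3 of 9, Timp1, Mmp2 and Mmp3, against 8.19% of all genes. Of the 4 libraries with at least 10 reads of Mmp3, 3 were knockouts, and without this gene the count is 2 of 8. The groups overlapped for every member, whereas they did not for 2.55% of all genes. Without knockout 40, edgeR again called 0 of 9. Timp1 had 1.09, 1.44, 6.38 and 2.53 CPM in soleus knockouts 35, 39, 40 and 42, and 1.1, 1.47, 1.47, 0.924 and 0.792 CPM in controls 34, 36, 37, 38 and 41. Knockouts 40 and 42 exceeded every control, while 35 and 39 lay among the controls. Its log2 fold change of 1.30 (SE 0.48, adjusted p = 0.515, edgeR) was 0.55 without knockout 40 (adjusted p = 0.996).

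Mmp3 had 0.202, 0.250, 0.922 and 0.0648 CPM in the soleus knockouts 35, 39, 40 and 42, which is 10, 18, 49 and 4 reads, and 0, 6, 4, 8 and 12 reads in controls 34, 36, 37, 38 and 41. Knockout 40 alone lay far above the controls, and 42 lay among them. For Mmp3 the log2 fold change of 1.88 (SE 0.81, adjusted p = 0.591, edgeR) was 0.83 without knockout 40. Mmp2 had 52.6, 43.9, 69.0 and 60.0 CPM in these knockouts, and 48.4, 54.6, 41.3, 43.4 and 38.8 CPM in these controls. Knockouts 40 and 42 lay above every control, and the log2 fold change of 0.32 (SE 0.13, adjusted p = 0.566, edgeR) was 0.21 without knockout 40. Mmp14 likewise had its highest values in knockouts 40 and 42, with 9.93, 9.33, 18.9 and 15.3 CPM in knockouts 35, 39, 40 and 42, and 10.6, 9.66, 9.01, 10.4 and 10.8 CPM in controls. Its log2 fold change of 0.42 (SE 0.19, adjusted p = 0.616, edgeR) was 0.20 without knockout 40.

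Timp3 and Timp4 had lower means in soleus knockouts too. Timp3 averaged 105.2 ± 38.9 CPM in knockouts and 133.5 ± 21.2 CPM in controls, and Timp4 averaged 26.4 ± 9.31 CPM in knockouts and 34.3 ± 6.68 CPM in controls (SD, n = 4 and 5). Knockout 42 had the lowest value of both genes, 68.5 CPM for Timp3 and 15 CPM for Timp4. The log2 fold changes were −0.34 for Timp3 (SE 0.22, adjusted p = 0.754, edgeR) and −0.37 for Timp4 (SE 0.25, adjusted p = 0.767, edgeR). Timp2, Mmp9 and Mmp15 had log2 fold changes of 0.11, 0.14 and 0.07. Their 95% intervals were −0.15 to 0.37, −0.52 to 0.81 and −0.09 to 0.22. Without knockout 40 the values were −0.30 for Timp3, −0.32 for Timp4, 0.0 for Timp2, −0.34 for Mmp9 and 0.09 for Mmp15, so that the sign of Mmp9 turned.

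**Figure D2:**
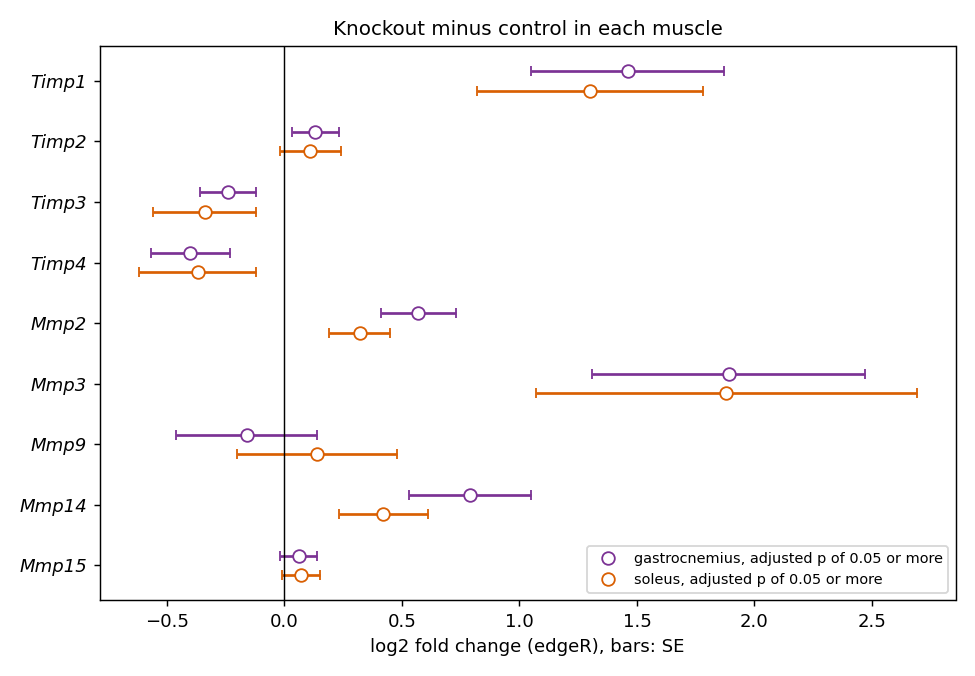
Log2 fold change of knockout over control (x axis) with its SE for each of the 9 genes (y axis) in gastrocnemius and soleus, from edgeR. All points are open because no gene reached an adjusted p under 0.05. With all libraries 8 of 9 genes have the same sign in both muscles, Mmp9 being the exception. Among these 8, Timp2 and Mmp15 have 95% intervals that include 0 in both muscles. Without knockouts 7 and 40 Mmp9 was below 0 in both (−0.45 in gastrocnemius and −0.34 in soleus). Whether the muscles came from the same mice is not known.

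The difference between the knockout effects in soleus and gastrocnemius was tested as an interaction. It passed for 0 of 9 genes, against 0.0703% of 18494 genes, and 0 of 9 had an unadjusted p under 0.05, against 5.4% of all genes. DESeq2 and limma voom gave 0 of 9 on both counts. The intervals were wide for the scarce genes. The difference in log2 fold change was −0.16 for Timp1 (95% interval −1.46 to 1.13) and −0.04 for Mmp3 (−2.65 to 2.56). For the abundant genes it was −0.26 for Mmp2 (−0.70 to 0.19), −0.39 for Mmp14 (−1.06 to 0.29) and 0.02 for Timp4 (−0.61 to 0.66). Without both libraries that stood apart it was −0.61 for Timp1, −0.56 for Mmp3, −0.15 for Mmp2, −0.20 for Mmp14 and 0.03 for Timp4. Without gastrocnemius knockout 7 alone the sign turned for Timp1 (0.16), Timp2 (0.12), Timp4 (−0.02), Mmp3 (0.48) and Mmp14 (0.02).

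Marker genes of fibroblasts and macrophages had higher means in the knockouts alongside Timp1, Mmp2, Mmp3 and Mmp14. Of 8 fibroblast markers, 7 had a positive log2 fold change in gastrocnemius knockouts and 7 in soleus knockouts, with medians of 0.28 and 0.26. Of 8 macrophage markers, 7 were positive in each muscle, with medians of 0.64 and 0.44, and none of these markers passed edgeR's test. At an unadjusted p under 0.05 were 4 of 8 fibroblast and 7 of 8 macrophage markers in gastrocnemius, against 18.6% of all genes, and 1 and 4 of 8 in soleus, against 8.19%. DESeq2 called Lum and the macrophage markers Adgre1, C1qb, Cd68 and Lyz2 in gastrocnemius, where it called 1235 of all 16393 genes. It called 0 of these markers in soleus, and limma voom called 0 in either. The median over all genes tested was 0.019 in gastrocnemius. Satellite-cell markers were positive for 4 of 4 in each muscle, with medians of 0.74 in gastrocnemius and 0.29 in soleus, and 1 passed in gastrocnemius. Endothelial markers were positive for 6 of 6 in gastrocnemius and 3 of 6 in soleus, and tendon markers for 3 and 1 of 6. Smooth muscle and pericyte markers were positive for 2 and 1 of 5. Schwann cell and adipocyte markers were positive for 0 of 4 each in both muscles. Slow-fibre markers were positive for 0 of 6 in both muscles, with medians of −0.78 in gastrocnemius, where 1 passed, and −0.35 in soleus. Fast-fibre markers were positive for 1 of 6 in gastrocnemius and 4 of 6 in soleus, with medians of −0.14 and 0.70. The fibroblast sum was 1117 to 2402 CPM in soleus knockouts and 1040 to 1612 CPM in soleus controls, and 2549 to 4191 CPM in gastrocnemius knockouts and 1924 to 3145 CPM in gastrocnemius controls. The macrophage sum was 82.0 to 143.2 CPM in soleus knockouts and 64.5 to 105.5 CPM in soleus controls, and 137.2 to 260.7 CPM in gastrocnemius knockouts and 101.0 to 145.4 CPM in gastrocnemius controls. Knockouts 7 and 40 lay above the control ranges of their muscle for both sums. The other knockouts lay within these ranges, except soleus knockout 42 with 1911 CPM for fibroblasts. The marker counts above include knockouts 7 and 40. No fibroblast or macrophage marker was at 0 in any group. Neutrophils, a known source of Mmp9, were hardly represented. None of their 6 markers passed the low-count filter, and Ly6g was at 0 in both knockout groups. More cells of a type and more RNA per cell cannot be told apart in these bulk samples, and the part of cell makeup in the levels of the 9 genes was not tested.

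**Figure D3:**
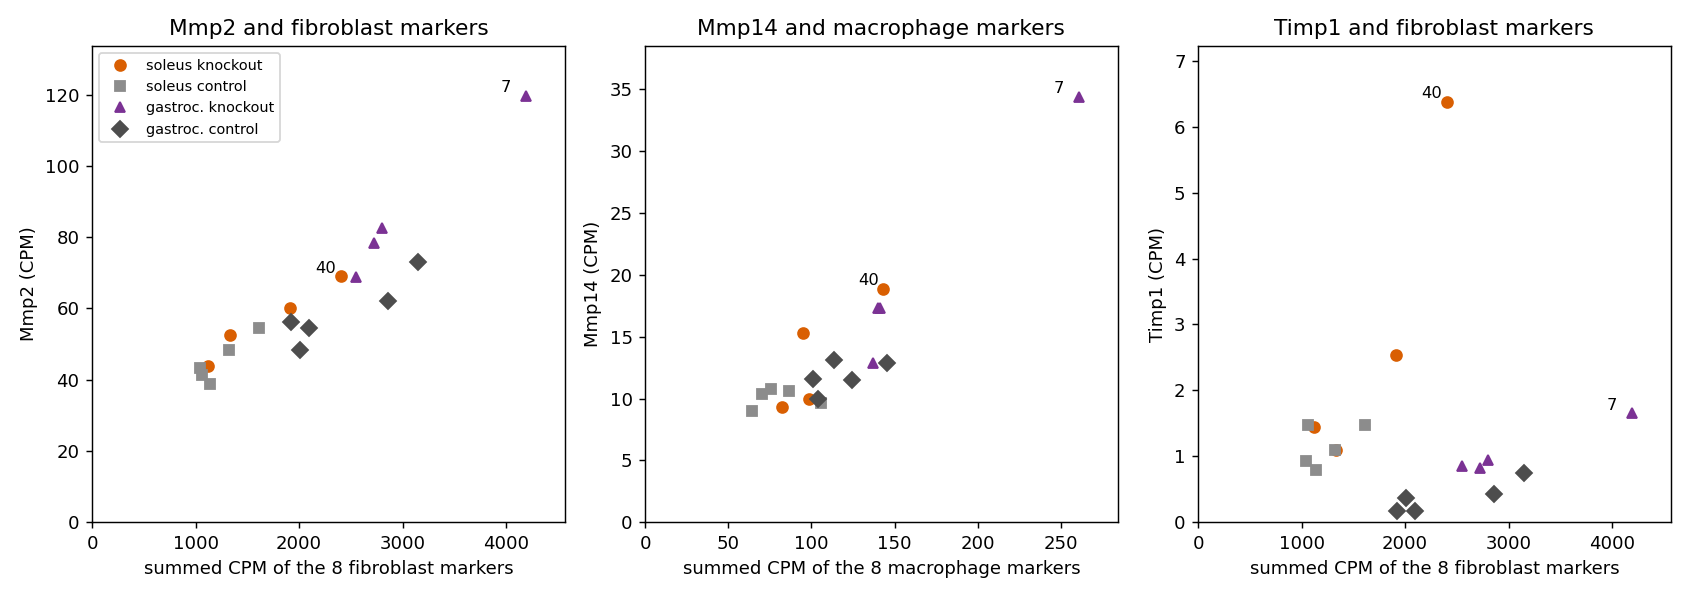
Levels of Mmp2, Mmp14 and Timp1 (y axes, CPM) against the summed CPM of 8 fibroblast or 8 macrophage markers (x axes), 1 point per library, with gastrocnemius knockout 7 and soleus knockout 40 numbered. Both numbered libraries have the highest marker sums of their group and the highest levels of all 3 genes in it.

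Between the muscles, soleus was set against gastrocnemius first in controls and then in knockouts, which use other libraries. In controls 4 of 9 genes passed the test, against 49.3% of the 18494 genes tested. Timp1 was higher in soleus, as were 27.4% of all genes, and Timp2, Mmp9 and Mmp15 were lower, as were 21.9%. In knockouts the same 4 genes passed in the same directions and Mmp2 was lower as well, which makes 5 of 9 against 37.8%, with 19.2% of all genes higher and 18.5% lower. The muscles did not overlap for 3 of 9 genes in knockouts, against 32.4% of all genes, and for 4 of 9 in controls, against 36.7%. Differences between the muscles were common among all genes, so these counts say little about the set.

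Timp2 had 59.5, 45.3, 69.4 and 52.7 CPM in the 4 soleus knockouts, and 122.7, 127.4, 166.7 and 125.4 CPM in the 4 gastrocnemius knockouts. It had 45.7 to 65.7 CPM with a median of 49.8 CPM in soleus controls, and 114.0 to 142.5 CPM with a median of 116.0 CPM in gastrocnemius controls. The muscles did not overlap in either genotype. For soleus over gastrocnemius it gave −1.26 on the log2 scale in knockouts (SE 0.13, adjusted p = 3.73e-07, edgeR) and −1.23 in controls (SE 0.12, adjusted p = 6.15e-08, edgeR). It was also −1.26 in knockouts without 7 and 40.

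Mmp15, a membrane-bound protease, gave even values within each group. It had 26.1, 28, 25.2 and 28.7 CPM in soleus knockouts, and 46.7, 54.3, 53.4 and 54.5 CPM in gastrocnemius knockouts. Controls had 27.4, 22.8, 26.2, 24.5 and 28.8 CPM in soleus, and 53.9, 49.2, 55.0, 43.0 and 49.5 CPM in gastrocnemius. All soleus libraries lay below all gastrocnemius libraries, and the log2 fold change was −0.95 in knockouts (SE 0.09, adjusted p = 1.04e-08, edgeR) and −0.95 in controls (SE 0.08, adjusted p = 9.43e-10, edgeR). It was −0.92 in knockouts without 7 and 40.

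Mmp9, the gelatinase of low abundance here, had 0.525, 0.333, 1.20 and 0.535 CPM in soleus knockouts, and 1.86, 1.86, 3.18 and 1.27 CPM in gastrocnemius knockouts. Controls had 0.519, 0.541, 0.571, 0.562 and 0.740 CPM in soleus, and 2.30, 2.46, 1.45, 1.57 and 3.51 CPM in gastrocnemius. The muscles did not overlap in either genotype. The log2 fold change was −1.66 in knockouts (SE 0.35, adjusted p = 0.000724, edgeR) and −1.95 in controls (SE 0.32, adjusted p = 2.51e-05, edgeR). Without knockouts 7 and 40 it was −1.85 in knockouts (adjusted p = 0.000154).

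Timp1 ran the other way. Its mean was 1.15 ± 0.311 CPM in soleus controls and 0.381 ± 0.238 CPM in gastrocnemius controls (SD, n = 5 each), and the 2 groups of controls did not overlap. On the log2 scale the difference was 1.58 (SE 0.48, adjusted p = 0.0103, edgeR). In knockouts it was 1.42 (SE 0.48, adjusted p = 0.0252, edgeR), but the call rested on single libraries. Without knockouts 7 and 40 it was 0.94 (adjusted p = 0.0836). Leaving out soleus knockout 40 alone gave 0.66 (adjusted p = 0.199), and without gastrocnemius knockouts 2, 6 or 9 in turn the adjusted p was 0.0619, 0.0686 and 0.0643. Syn1 also differed between the control muscles, with 0.837 ± 0.332 CPM in soleus and 0.460 ± 0.129 CPM in gastrocnemius (SD, n = 5 each) and a log2 fold change of 0.86. Syn1 was also higher alongside Timp1 in gastrocnemius knockouts over controls, with 1.03 (adjusted p = 0.0707, edgeR). It did not follow Timp1 between the knockout muscles or in soleus knockouts over controls. Syn1 had −0.28 between the knockout muscles (adjusted p = 0.55, edgeR) and −0.10 for soleus knockouts over soleus controls (adjusted p = 0.964, edgeR).

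Mmp2 averaged 56.4 ± 10.7 CPM in soleus knockouts and 87.3 ± 22.3 CPM in gastrocnemius knockouts (SD, n = 4 each), and the log2 difference was −0.63 (SE 0.17, adjusted p = 0.00745, edgeR). Without knockouts 7 and 40 it was −0.56 (adjusted p = 0.00623). In controls it averaged 45.3 ± 6.29 CPM in soleus and 58.8 ± 9.26 CPM in gastrocnemius, and did not pass the test, with −0.38 (SE 0.15, adjusted p = 0.0507, edgeR). It passed in controls with DESeq2 (adjusted p = 0.0121). Timp3, Timp4, Mmp3 and Mmp14 did not pass edgeR's test between the muscles in either genotype over all 18 libraries. For Mmp14 this rested on single choices. Its log2 fold change was −0.62 in knockouts (adjusted p = 0.0701) and −0.23 in controls (adjusted p = 0.437). In knockouts it passed with DESeq2 (adjusted p = 0.0227), without gastrocnemius knockout 2 (0.0196), without soleus knockout 40 (−0.83, adjusted p = 0.0195) and without both 7 and 40 (−0.47, adjusted p = 0.0294), but came to −0.25 without knockout 7 (adjusted p = 0.355). In controls it passed when they were fitted alone (−0.27, adjusted p = 0.0154). In knockouts Timp3 passed without soleus knockout 35 (−0.43, adjusted p = 0.0466), and Timp4, at 0.41 over all libraries, passed without soleus knockout 42 (0.61, adjusted p = 0.0329). Without knockouts 7 and 40, Timp4 had 0.39 (adjusted p = 0.359) in knockouts. Mmp3, at −0.47 in knockouts over all libraries, had −1.03 without them (adjusted p = 0.353). Timp3 came out at a log2 fold change of −0.15 in knockouts (95% interval −0.55 to 0.25; −0.16 without 7 and 40) and −0.04 in controls (−0.41 to 0.32).

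Of the fibroblast markers, 4 of 8 were lower in soleus in knockouts and 4 of 8 in controls and none was higher, and of the macrophage markers 5 of 8 were lower in knockouts and 3 of 8 in controls. Of 6 endothelial markers, 5 were higher in soleus in knockouts and 6 in controls. Among all genes tested, 18.5% were lower and 19.2% higher in knockouts, and 21.9% lower and 27.4% higher in controls. The part of cell makeup in the differences between the muscles was not tested.

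**Figure D4:**
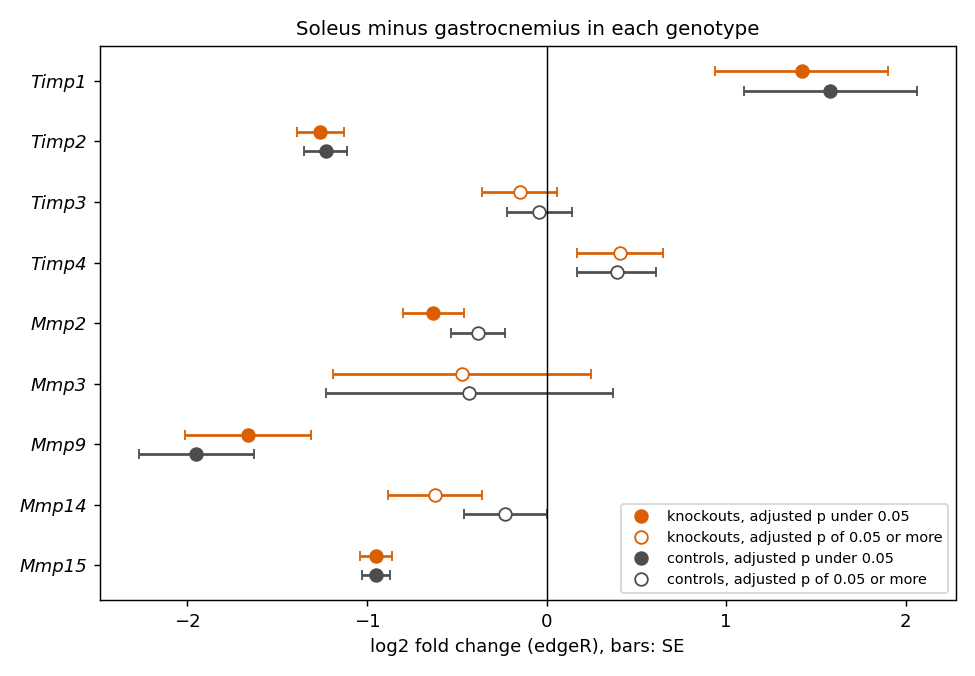
Log2 fold change of soleus over gastrocnemius (x axis) with its SE for each of the 9 genes (y axis) in knockouts and in controls, from edgeR; filled points have an adjusted p under 0.05. Timp2, Mmp9 and Mmp15 are filled and below 0 in both genotypes, and Timp1 is filled and above 0 in both.

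Summed per kilobase, the 4 inhibitors exceeded the 5 proteases in every library, which counts transcripts and not active protein. The inhibitor sum was 49.4 ± 11.1 CPM per kilobase in soleus knockouts and 55.4 ± 9.35 in soleus controls, and 64.3 ± 6.28 in gastrocnemius knockouts and 67.5 ± 7.10 in gastrocnemius controls (SD, n = 4 and 5). The protease sum was 30.3 ± 5.33 CPM per kilobase in soleus knockouts and 25.0 ± 1.70 in soleus controls, and 49.5 ± 11.8 in gastrocnemius knockouts and 36.1 ± 4.31 in gastrocnemius controls. The inhibitor to protease ratio was thus 1.09 to 2.25 in soleus knockouts and 1.86 to 2.53 in soleus controls, and 1.04 to 1.79 in gastrocnemius knockouts and 1.68 to 2.04 in gastrocnemius controls. The ranges of the genotypes overlapped in both muscles. These sums were formed over members chosen with results known and were not tested.

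The make-up of the inhibitor sum differed between the muscles. Timp4 made up 37.3 ± 8.32% of it in soleus knockouts and 21.7 ± 4.12% in gastrocnemius knockouts, and 43.5 ± 2.30% in soleus controls and 27.3 ± 3.14% in gastrocnemius controls. Timp2 made up 30.3 ± 6.73% in soleus knockouts and 54.2 ± 6.94% in gastrocnemius knockouts, and 24.5 ± 1.64% in soleus controls and 47.0 ± 2.14% in gastrocnemius controls. Mmp2 held 53.4 to 61.1% of the protease sum as a mean of each group. Timp1 reached 13.5% of the inhibitor sum in soleus knockout 40, against 2.33 ± 0.461% in soleus controls.

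**Figure D5:**
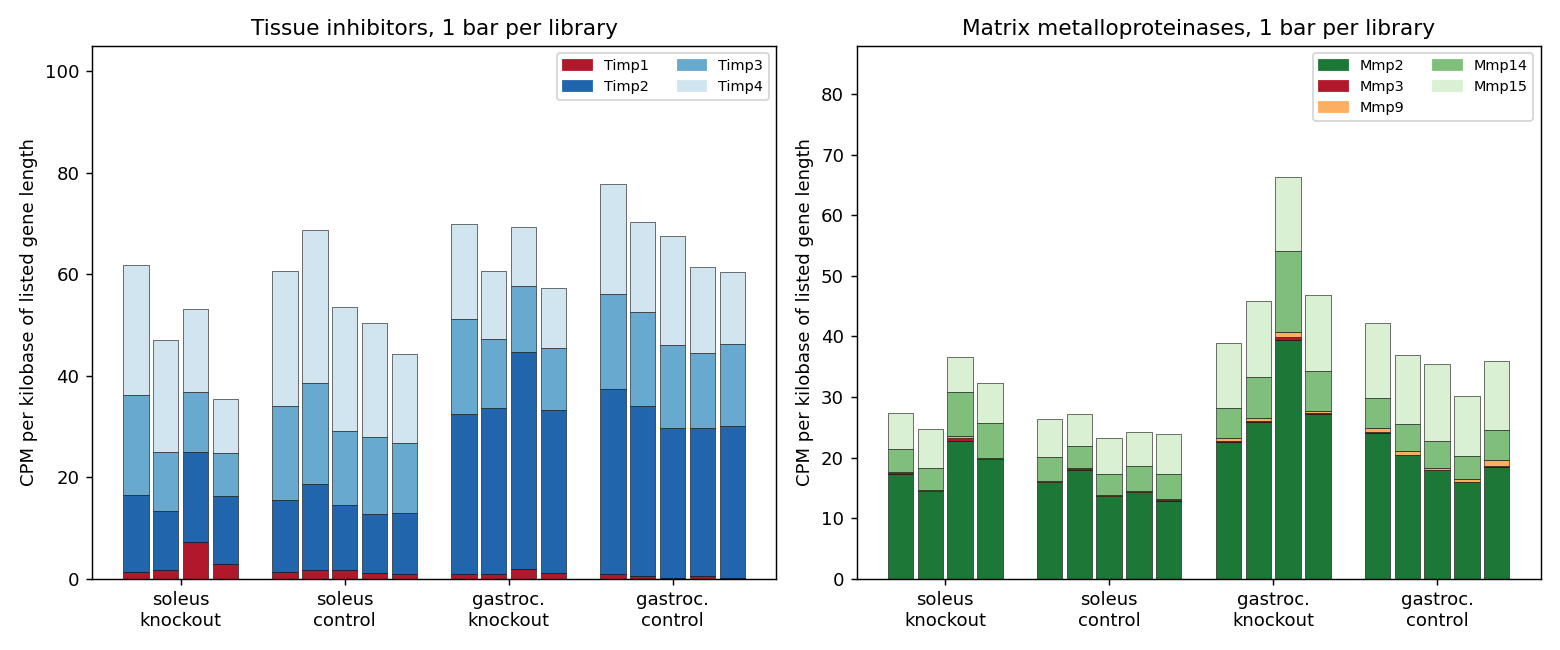
Levels of the 4 inhibitors (left) and the 5 proteases (right) stacked in each library (y axis, CPM per kilobase of listed gene length), with the libraries grouped by muscle and genotype (x axis). Timp2 fills the largest share of the inhibitor bars in gastrocnemius, and Mmp2 fills most of every protease bar.

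Among other genes of these families, a list of 68 further MMP, ADAM, ADAMTS, plasminogen-system and clearance genes was counted. In gastrocnemius 52 were tested, of which 4 rose and 1 fell in knockouts, or 5 of 52 against 3.78% of all genes tested. Adamts4, an aggrecanase, averaged 1.54 ± 0.816 CPM in knockouts and 0.512 ± 0.151 CPM in controls (SD, n = 4 and 5), a log2 fold change of 1.56 (adjusted p = 0.0407, edgeR). Adam8, known from myeloid cells, had 1.06 (adjusted p = 0.0410), Mmp11, a stromal protease, had 0.88 (adjusted p = 0.0438) and Mmp19 had 0.86 (adjusted p = 0.0192) by edgeR. Serpine2, an inhibitor of serine proteases, fell by 0.34 on the log2 scale (adjusted p = 0.0438, edgeR). Each of these 5 calls was lost without knockout 7, control 4 or control 5, and each but that of Mmp19 also without knockout 6, control 1 or control 8. Those of Adamts4, Adam8 and Mmp11 were lost without control 3, and those of Adam8, Mmp11 and Serpine2 without knockout 9. The highest adjusted p over the libraries left out was 0.137 for Adamts4, 0.134 for Adam8, 0.136 for Mmp11, 0.0543 for Mmp19 and 0.151 for Serpine2. Without knockout 7 the log2 fold changes were 1.29 for Adamts4, 0.80 for Adam8, 0.65 for Mmp11, 0.71 for Mmp19 and −0.32 for Serpine2.

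DESeq2 called 8 of the 52, these 5 included, against 1235 of all 16393 genes. Limma voom called Mmp19 and Serpine2, against 575 of all genes. In soleus 55 of the 68 were tested, and 0 rose and 0 fell by edgeR, DESeq2 or limma voom. Of all genes 0.0553% passed there by edgeR. At an unadjusted p under 0.05 by edgeR were 9 of the 55, against 8.19% of all genes. Between the muscles, 6 of 55 were higher and 11 lower in soleus in knockouts, and 17 were higher and 13 lower in controls. Over all genes the shares were 19.2% higher and 18.5% lower in knockouts, and 27.4% higher and 21.9% lower in controls. Adamts8, a protease with anti-angiogenic activity, differed most, with 16.9 ± 4.43 CPM in soleus knockouts and 1.46 ± 0.643 CPM in gastrocnemius knockouts (SD, n = 4 each), and 18.9 ± 5.43 CPM in soleus controls and 1.55 ± 0.520 CPM in gastrocnemius controls (SD, n = 5 each). Its log2 fold change was 3.53 in knockouts and 3.60 in controls. Adamts6 was higher in soleus by 1.30 on the log2 scale in knockouts and by 1.73 in controls. Plau, the urokinase plasminogen activator that can activate pro-MMPs through plasmin, was lower in soleus than gastrocnemius knockouts (log2 fold change −0.84). In the same comparison the aggrecanase Adamts5 was lower with −0.91, while Adamts10 was higher with 0.77. Without knockouts 7 and 40 these were −0.85, −1.04 and 0.70, and Adamts8 and Adamts6 had 3.52 and 1.31 in knockouts. In controls, the genes of largest change also included Mmp21 with 2.42, Spock3 with 1.41 and Adam11 with 1.11.

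Across the 18 libraries, each gene centred on its mean in each muscle, levels of the members varied together in 2 sets. Mmp2 and Mmp14 had a Pearson correlation of log2 CPM of 0.89, and Mmp2 had 0.83 with Timp1, 0.81 with Timp2 and 0.74 with Mmp3. Timp3 and Timp4 correlated at 0.89 with each other, and at −0.55 and −0.68 with Mmp14. Mmp15 had correlations between −0.44, with Timp3, and 0.35, with Mmp14. The libraries share genotype, depth and cell makeup, and the high values of knockouts 7 and 40 enter these figures, which are descriptions.

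The same measure was taken over 11319 genes, from which those on the lists were then left out. The genes most like Mmp2 were Vim (0.95), Dclk1 (0.95) and Mxra8 (0.94), and those most like Mmp14 were Cotl1 (0.98), Bgn (0.96) and Grn (0.96). Timp2 was nearest to Nid1 (0.97), Axl (0.96) and Pcolce (0.92), and Timp1 to Tmsb10 (0.89), Tram1 (0.88) and Rian (0.88). Timp3 was nearest to Fam107a (0.95), Adgrg1 (0.94) and Pkp4 (0.94). Timp4 was nearest to Ppara (0.94), Slc9a3r2 (0.92) and Fam107a (0.91), so that both had Fam107a among their nearest 3 genes. The scarce Mmp3 had Zim1 (0.92), Col6a6 (0.88) and Peg3 (0.88). For Mmp9 and Mmp15 the nearest genes, Rnh1 (0.79) and S1pr3 (0.77), were less alike.

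In the GRCm38 coordinates of the deposited files the inhibitors lie at chrX:20870166-20874735 (Timp1), chr11:118301069-118355740 (Timp2), chr10:86300372-86349506 (Timp3) and chr6:115245616-115251849 (Timp4). The proteases lie at chr8:92827328-92853417 (Mmp2), chr9:7445822-7455972 (Mmp3), chr2:164940780-164955850 (Mmp9), chr14:54431604-54441258 (Mmp14) and chr8:95352268-95374293 (Mmp15). Timp1, Timp3 and Timp4 each lie within a synapsin gene on the opposite strand, Syn1, Syn3 and Syn2. Syn1 shares 0 exonic bases with Timp1 and averaged 54.65% of its counts. Syn3 shares 1733 exonic bases with Timp3, which is 21.28% of its listed length, but averaged 97.6 counts, or 1.51% of those of Timp3. Syn2 shares 0 exonic bases with Timp4 and averaged 11.87% of its counts.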

How the data were processed

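RNA of each muscle was depleted of ribosomal RNA with a KAPA RiboErase kit, per the labels. Per library, the authors deposited gene-level read counts under Ensembl identifiers. The submitters' processing notes name GRCm38, STAR 2.5.1a, bcl2fastq, featureCounts 1.4.6-p5 and Subread. The deposited CPM and RPKM values were not used. No source used here gives the annotation release or the strand setting. Symbols came from GENCODE for 40254 of 41388 features (97.3%). 0 rows named no gene.

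The test was the robust quasi-likelihood test of edgeR 4.0.16 in R 4.3.3, after TMM scaling and filterByExpr (count of at least 10, total of at least 15). Benjamini-Hochberg adjustment ran over all genes tested, with a threshold of 0.05. Each muscle's 9 libraries gave the knockout comparisons, and all 18 gave the muscle comparisons and the interaction. CPM levels use library sizes scaled by TMM over all 18 libraries. Intervals take the SE as normal. Alternatives used other scalings, no filter, DESeq2 1.42.0, voom in limma 3.58.1, other sets of libraries and each library left out. Leaving out gastrocnemius knockout 7 and soleus knockout 40 together was chosen after seeing the data. Likeness used log2 CPM with a pseudocount of 0.5 and genes of mean log2 CPM of at least 1.0. The chi-square per gene between replicates was 17.7 to 125.1, well past sampling noise, and none were merged. Reads carry no molecular identifiers. Named genes were the 9 members, up to 6 passing family genes of largest change per comparison, the 3 genes nearest each member and genes overlapping a member. 1 family gene that this rule names is not reported here. Members and lists were chosen with earlier results of these data known.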

Additional observations from a re-analysis of the deposited data

Results flagged for a closer look

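Of 36 groups of a gene's levels, 5 held 1 library far from the others by Dixon's test at the 95% level, which chance gives in about 1 of 20 groups. In gastrocnemius knockouts, library 7 had 1.65 CPM of Timp1, against 0.824 to 0.950 CPM in the other knockouts, and 166.7 CPM of Timp2, against 122.7 to 127.4 CPM. In the same group, library 2 had 46.7 CPM of Mmp15, below the 53.4 to 54.5 CPM of the others. Gastrocnemius control 1 had 0.323 CPM of Mmp3, above the 0.0431 to 0.107 CPM of the other controls. Soleus control 41 had 0.740 CPM of Mmp9, above the 0.519 to 0.571 CPM of the other controls.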

How the results depend on the processing

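No paired analysis was possible because the groups share no replicate numbers and no label ties a soleus library to a gastrocnemius library. The count of genes passing in gastrocnemius knockouts, 619 (290 higher, 329 lower, or 46.8% higher), was 1235 with DESeq2 and 206 to 1080 with 1 library left out. It was 1080 without knockout 2, 211 without knockout 6, 287 without 7 and 394 without 9, and 261, 278, 206 and 354 without controls 1, 4, 5 and 8. Upper quartile scaling gave 318 higher and 236 lower (57.4% higher). The soleus count, 10, was 48 without a filter, 166 with DESeq2, 28 in the fit of all 18 libraries and 3 to 66 with 1 library left out. The interaction count, 13, was 52 with DESeq2 and 2 to 23 with 1 left out.

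Timp1 in gastrocnemius knockouts passed without a filter (adjusted p = 0.0121), with DESeq2 (0.0156), with voom (0.049) and without control 1 (0.0377) or knockout 2 (0.0487). Mmp2, Mmp3 and Mmp14 passed there with DESeq2 (0.00764, 0.0401 and 0.00871). Mmp3 also passed without a filter (0.0371) and without control 1 (0.0438), and Mmp2 and Mmp14 passed without knockout 2 (0.0395 and 0.0422). Timp1 between knockout muscles was lost without a filter (0.0628), with voom (0.0776), with the knockouts fitted alone (0.0747) and without knockouts 7 and 40 (0.0836).

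No member's knockout effect that had an unadjusted p under 0.05 changed sign under any alternative. Other signs did change, and the cause was not tested. Mmp9 had −0.04 in soleus knockouts with voom. The interaction came to 0.0 for Timp2 with DESeq2 size factors, with DESeq2 and without knockouts 7 and 40, to −0.03 for Timp4 with voom, and to −0.01 with upper quartile scaling and 0.0 without a filter for Mmp15. With 1 library left out, Mmp9 ranged from −0.45 to 0.06 in gastrocnemius knockouts and from −0.34 to 0.37 in soleus knockouts, and Timp2 from 0.0 to 0.21 in soleus knockouts. Soleus over gastrocnemius ranged from −0.43 to 0.01 for Timp3 and −1.51 to 0.02 for Mmp3 in knockouts, and from −0.12 to 0.01 for Timp3 and −0.9 to 0.3 for Mmp3 in controls. The interaction ranged from −0.92 to 0.16 for Timp1, −0.14 to 0.12 for Timp2, −0.38 to 0.05 for Timp3, −0.16 to 0.22 for Timp4, −1.08 to 0.48 for Mmp3, −0.19 to 0.62 for Mmp9, −0.6 to 0.02 for Mmp14 and −0.05 to 0.05 for Mmp15.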
